A study of Rattus norvegicus with 18 samples.

Results

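The 10 genes of apolipoproteins and lipoprotein assembly described here were followed in rat liver through a course of diethylnitrosamine, a nitrosamine that cytochrome P450 enzymes turn into a DNA alkylating agent and that produces liver tumours in rodents. They are Apoa1, Apoa2, Apoa4, Apoa5, Apob, Apoc1, Apoc3, Apoe, Apom and Mttp. Every probe set whose deposited gene symbol is 1 of these names was taken, which gave 11 probe sets of 10 genes among the 31099 on the array. Apob is read by 2 probe sets and the others by 1 each. Sprague-Dawley rats gave tissue from the middle of the right lobe, and its RNA was read on Affymetrix Rat Genome expression arrays. Normal liver was taken at 0 h, and liver of the cancer model at 5 later times (5 weeks, 8 weeks, 12 weeks, 16 weeks and 18 weeks of treatment), with 3 arrays in each of the 6 groups. Every sample carries the same age label, 12 weeks, so age and time on treatment cannot be told apart, and an untreated liver of each later time was not analysed here. Arrays within a group are described as technical replicates. The p values thus rest on array-to-array spread, possibly technical, and need not cover differences between animals. No source used here states sex, dose or route. The normal arrays stood apart from the treated ones in the exocrine pancreas markers Cpa1 and Cela1, though not in every such marker tested. The values are given with the other cell type markers.

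Apolipoproteins are the protein coats of the particles that carry lipid in blood, and hepatocytes make most of them. ApoB is the backbone of very low density lipoprotein. The microsomal triglyceride transfer protein encoded by Mttp loads lipid onto it in the endoplasmic reticulum. ApoA-I and ApoA-II are the main proteins of high density lipoprotein (HDL), ApoE directs remnants to hepatic receptors, and the small ApoC proteins and ApoA-V tune how fast lipoprotein lipase removes triglyceride. Many of these genes are driven in hepatocytes by nuclear receptors and by the factors HNF1 and HNF4. Rat liver also edits Apob mRNA, which yields a shorter ApoB protein.

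Signals below are the authors' linear summary intensities per probe set and array. Changes are differences of mean log2(signal + 16) from limma, given ± SE, and a probe set was called when its Benjamini-Hochberg adjusted p was under 0.05 with a fold change of at least 2. The 5 comparisons with normal liver share the same 3 normal arrays. Each step between 2 times shares arrays with the comparisons of both times.

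Apoa5, Apom, Apoa4, Apoa2 and 1 of the 2 Apob probe sets fell at least 2-fold in at least 1 comparison with normal liver, and no member rose 2-fold. Of the 11 member probe sets, 2 were called lower at 5 weeks, where 2.55% of all 18625 tested probe sets were called lower. The count was 2 at 8 weeks (5.26% of all), 4 at 12 weeks (4.13%), 5 at 16 weeks (5.17%) and 4 at 18 weeks (4.43%). Without the fold threshold, limma placed 8, 10, 10, 10 and 9 of the 11 lower at the 5 times in order. The share of all probe sets that passed this weaker rule as lower was 20.8%, 22.9%, 21.7%, 22.4% and 23.4%. Apoa1 was the only member probe set higher by that rule, at 12 weeks (as were 40.7% of all probe sets) and at 18 weeks (34.8%). At an unadjusted p under 0.05, 1 member was higher at each of those 2 times and 0 were higher at 5, 8 and 16 weeks. Shares of all probe sets at an unadjusted p were not computed. The median change of the 11 was −0.23, −0.54, −0.62, −0.79 and −0.70 at these times, beside medians of 0.05, 0.10, 0.18, 0.21 and 0.09 over all tested probe sets. All 11 varied over the 6 groups by the moderated F-test, as did 83% of all probe sets. The counts depended on the scaling between arrays. After quantile normalization 3, 5, 7, 7 and 7 members were lower by adjusted p alone, beside 21.5%, 24.3%, 29.0%, 31.9% and 28.1% of all probe sets. At the same times 2, 2, 2, 2 and 3 members were higher, beside 24.7%, 30.2%, 30.2%, 31.8% and 29.7% of all. The members' median was then 0.02, −0.05, −0.21, −0.16 and −0.24. After centring on the array medians 9, 10, 10, 11 and 10 were lower, beside 25.4%, 27.3%, 41.6%, 45.8% and 32.8% of all probe sets. The members' medians were then between −0.33 and −1.26, and those of all probe sets between −0.01 and −0.26.

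**Figure D1:**
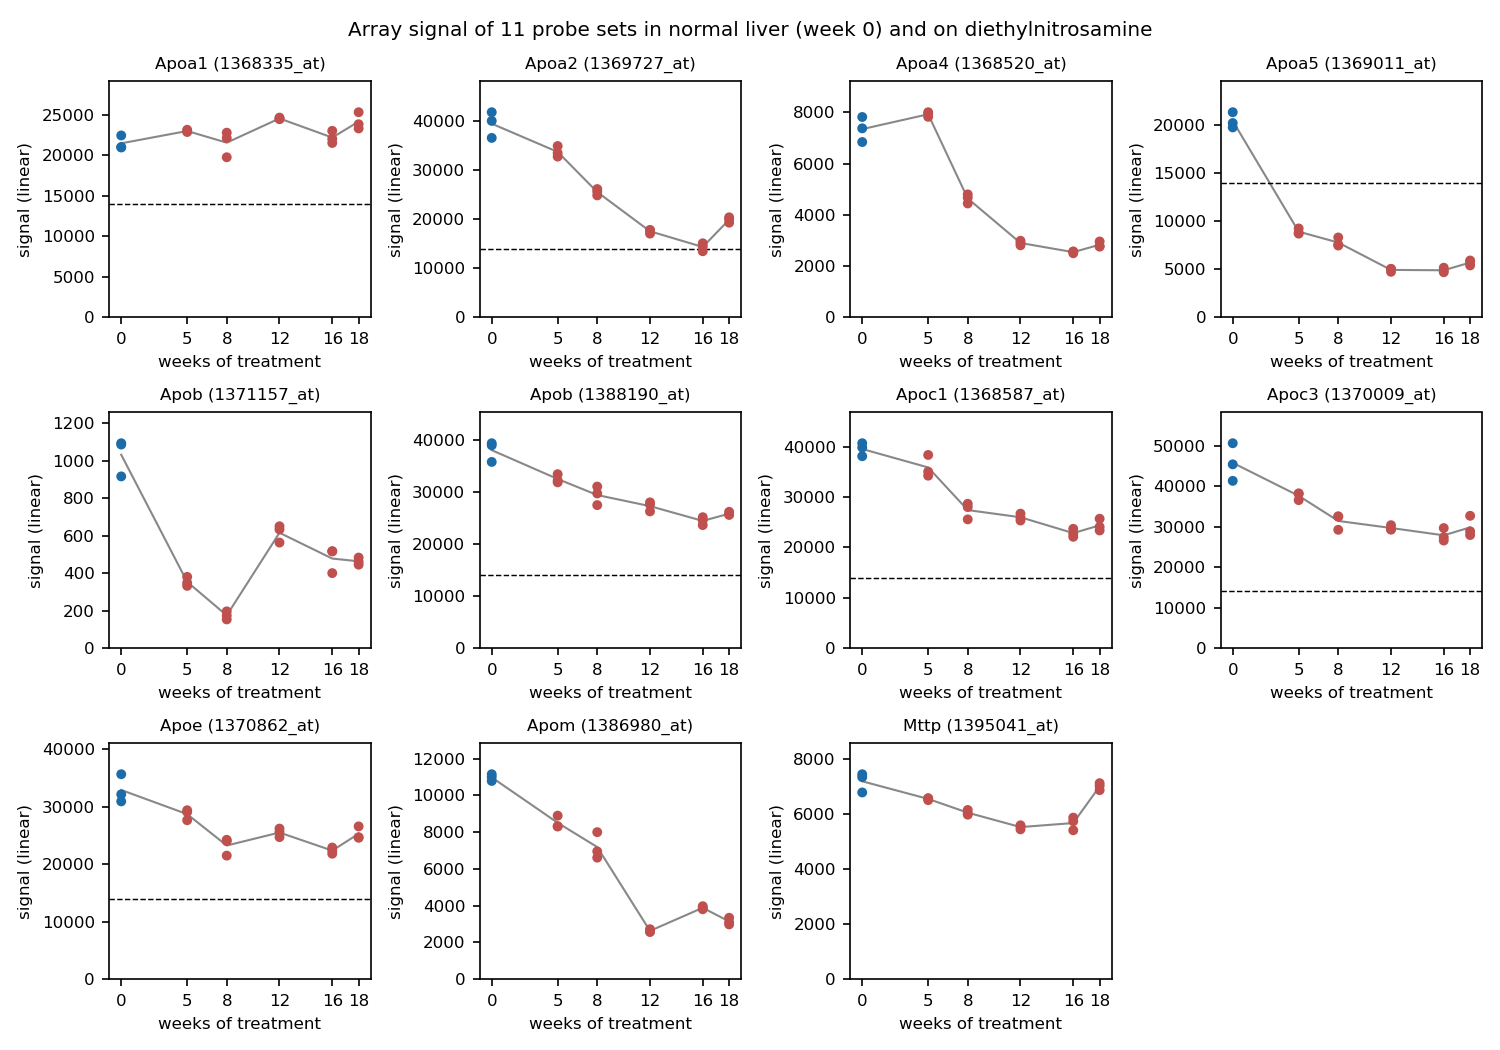
Signal on a linear scale (y axis) of each of the 11 probe sets on each array, against weeks of treatment (x axis, 0 being normal liver, blue). Grey lines join group means and the dashed line, where in range, marks the 99th percentile of normal-liver probe sets, a signal of 14003. Apoa5 drops to between 8684 and 9223 by 5 weeks, Apom drops between 8 and 12 weeks, and Apoa1 stays between 19754 and 25320 throughout.

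Apoa5, Apoa4, Apoc3 and Apoa1 lie side by side on chromosome 8 in the RefSeq annotation, in the order Apoa1, Apoc3, Apoa4, Apoa5. Over the course their signals parted widely. Apoa5, an activator of triglyceride clearance made by the liver, was called lower at every time, which 0.677% of all probe sets were. Its signal was 20194, 21319 and 19738 in normal liver. It was 8770, 9223 and 8684 at 5 weeks, then 7446, 8285 and 7540 at 8 weeks. It reached 4996, 5020 and 4712 at 12 weeks and 5138, 4809 and 4666 at 16 weeks. At 18 weeks it read 5762, 5888 and 5377. No treated array came near a normal one. The change was −1.20 ± 0.061 at 5 weeks (adjusted p = 1.22e-09), a 2.29-fold fall, and −2.06 ± 0.061 at 16 weeks (adjusted p = 6.24e-13), a 4.18-fold fall. The step from 12 to 16 weeks was −0.01 ± 0.061 (adjusted p = 0.92), with overlapping arrays.

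Apoa4, an apolipoprotein of chylomicrons and HDL that rodent liver also makes, fell later. Its signal was 6842, 7821 and 7377 in normal liver and 7948, 7827 and 8007 at 5 weeks. From 8 weeks it was lower on every array, at 4670, 4441 and 4796. The later arrays read 2806, 2983 and 2902 at 12 weeks, 2562, 2557 and 2495 at 16 weeks and 2753, 2779 and 2955 at 18 weeks. At 5 weeks all 3 arrays lay just above the normal ones, with a change of 0.11 ± 0.0557 that did not pass the test (adjusted p = 0.114). The change was −0.66 ± 0.0557 at 8 weeks (adjusted p = 1.32e-07) and −1.53 ± 0.0557 at 16 weeks (adjusted p = 6.2e-12), a 2.88-fold fall.

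Apoc3, which slows lipolysis and remnant uptake, moved less. It read 45414, 50630 and 41333 in normal liver and 26576, 29661 and 27381 at 16 weeks, its lowest time. Every treated array lay below every normal array, and the change went from −0.28 ± 0.0796 at 5 weeks (adjusted p = 0.00976) to −0.71 ± 0.0796 at 16 weeks (adjusted p = 1.64e-06). Under quantile normalization the change at 16 weeks was only −0.13, and under centring on the array medians it was −1.18.

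Apoa1, the chief protein of HDL, held its signal. It read 21018, 22448 and 20963 in normal liver, 22975, 22875 and 23151 at 5 weeks and 19754, 22792 and 22129 at 8 weeks. At 12 weeks it read 24539, 24655 and 24458, at 16 weeks 23021, 22029 and 21519, and at 18 weeks 23315, 23837 and 25320. The largest change was 0.19 ± 0.0583 at 12 weeks (adjusted p = 0.00989), a 1.14-fold difference. Its sign depended on the scaling: at 16 weeks the change was 0.05 as deposited, 0.61 after quantile normalization and −0.42 after median centring.

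**Figure D2:**
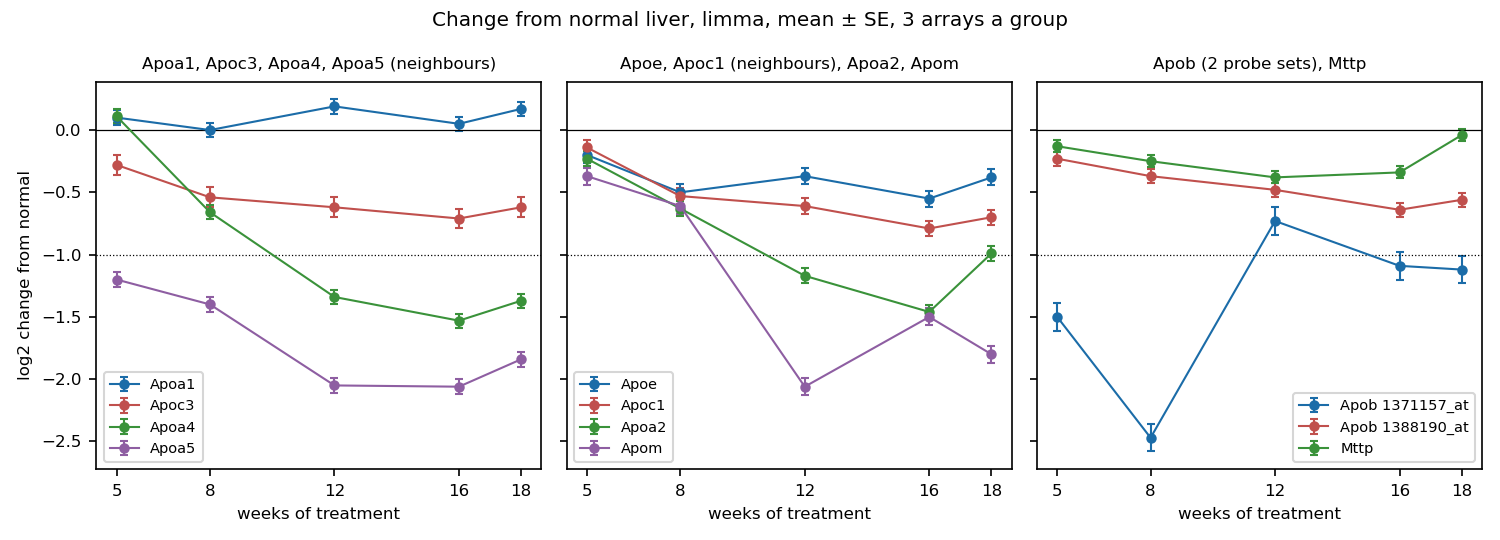
Change from normal liver in log2 units (y axis, limma estimate ± SE, 3 arrays a group) against weeks of treatment (x axis), with neighbouring genes drawn together. The dotted line marks a 2-fold fall. Within the chromosome 8 neighbours the 16-week change runs from 0.05 for Apoa1 to −2.06 for Apoa5, and the 2 Apob probe sets follow different courses.

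The stretch of 250 bases before the annotated start is shown for Apoa5, Apoa4 and Apom, which were called lower at 12, 16 and 18 weeks alike and are listed in the RefSeq promoter table. Sequences are from RefSeq, build GRCr8, all on the plus strand, at chr8:55457621-55457870 for the first of the 2 listed Apoa5 starts, chr8:55435529-55435778 for Apoa4 and chr20:3695368-3695617 for Apom. Capitals mark matches on either strand to AAAGTCCA (an HNF4 element), GTTAAT (a core of the HNF1 site), AGGTCA (the core hexamer of nuclear receptor sites) and TGTTTAC (a forkhead element), motifs that were chosen after the sequences had been seen.
Apoa5: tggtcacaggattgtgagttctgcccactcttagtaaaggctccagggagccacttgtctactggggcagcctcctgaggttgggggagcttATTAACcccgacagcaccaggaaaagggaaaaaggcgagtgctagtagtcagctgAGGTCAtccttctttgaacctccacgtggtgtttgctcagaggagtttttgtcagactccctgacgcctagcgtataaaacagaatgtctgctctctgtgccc
Apoa4: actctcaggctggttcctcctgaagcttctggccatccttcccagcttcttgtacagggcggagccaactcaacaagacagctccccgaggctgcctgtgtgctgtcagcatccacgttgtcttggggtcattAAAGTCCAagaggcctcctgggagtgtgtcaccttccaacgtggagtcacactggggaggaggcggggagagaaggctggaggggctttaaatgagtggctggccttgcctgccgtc
Apom: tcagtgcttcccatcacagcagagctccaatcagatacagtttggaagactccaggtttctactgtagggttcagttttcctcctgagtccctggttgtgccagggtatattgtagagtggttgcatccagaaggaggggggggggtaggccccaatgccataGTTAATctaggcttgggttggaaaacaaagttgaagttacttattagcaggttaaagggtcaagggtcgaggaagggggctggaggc
Apoa4 held AAAGTCCA once, beginning 117 bases before the start, and 1.19% of 33469 rat promoters of this length held it on either strand. The Apom stretch held GTTAAT once, beginning 87 bases before the start, a motif in 6.45% of promoters. Apoa5 held GTTAAT on the other strand, where it reads ATTAAC, beginning 158 bases before the start, and AGGTCA, which 14.1% of promoters held. TGTTTAC, held by 3.21% of promoters, was in none of the 3 stretches, and no overlap between matches occurred. Of the other listed members, Apoc1, called at no time with signals as deposited, held 1 copy of GTTAAT, shared by the overlapping stretches of its 2 starts. That copy began 122 bases before the first start and 207 bases before the second. The second listed Apoa5 start and the 3 Apoe starts had none of these motifs. These matches describe the letters of the sequence and were not tested as binding sites. Apoa1, Apoa2, Apob, Apoc3 and Mttp had no entry in the table used.

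Apom and Apoa2, both HDL proteins, fell with different timing. Apom binds a bioactive sphingolipid on HDL. Its signal was 11146, 10781 and 10995 in normal liver, 8892, 8303 and 8317 at 5 weeks and 6948, 7994 and 6608 at 8 weeks. It then dropped to 2713, 2594 and 2560 at 12 weeks. Later it read 3965, 3800 and 3874 at 16 weeks and 2975, 3096 and 3336 at 18 weeks. The 12-week arrays were the lowest, and no 2 of the last 3 times overlapped. The change from normal was −0.37 ± 0.0676 at 5 weeks (adjusted p = 0.000415), −2.06 ± 0.0676 at 12 weeks (adjusted p = 2.36e-12) and −1.80 ± 0.0676 at 18 weeks (adjusted p = 1.02e-11). The step from 8 to 12 weeks was −1.44 ± 0.0676 (adjusted p = 3.34e-10), a 2.72-fold fall. From 12 to 16 weeks Apom rose by 0.56 ± 0.0676 (adjusted p = 2.99e-05), and from 16 to 18 weeks it changed by −0.31 ± 0.0676 (adjusted p = 0.00276).

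Apoa2 declined step by step to 16 weeks and then rose in part. It read 40120, 41890 and 36639 in normal liver, 32823, 33523 and 34981 at 5 weeks and 24882, 26179 and 25662 at 8 weeks. At 12 weeks it read 17753, 17815 and 17067, at 16 weeks 15092, 14457 and 13468, and at 18 weeks 20044, 19305 and 20399. The arrays of neighbouring times did not overlap at any step. The change was −1.17 ± 0.0596 at 12 weeks (adjusted p = 3.2e-10), −1.46 ± 0.0596 at 16 weeks (adjusted p = 2.09e-11) and −0.99 ± 0.0596 at 18 weeks (adjusted p = 2.18e-09). The last is a 1.98-fold fall, just inside the 2-fold limit, and it passed that limit in the fit without normal array 3 or without 18-week array 3. The rise from 16 to 18 weeks was 0.47 ± 0.0596 (adjusted p = 3.52e-05). After quantile normalization the fall was −0.73 at 12 weeks and −0.87 at 16 weeks, which no longer reached 2-fold, and the change at 5 weeks turned from −0.23 to 0.02.

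Apoe and Apoc1 are adjacent coding genes on chromosome 1 and both fell by less than 2-fold. Apoe, a ligand for the uptake of remnants, read 32151, 35652 and 30929 in normal liver, 21488, 24008 and 24241 at 8 weeks and 22891, 22378 and 21816 at 16 weeks. All treated arrays lay below all normal ones. The change was −0.50 ± 0.0647 at 8 weeks (adjusted p = 1.14e-05), −0.37 ± 0.0647 at 12 weeks (adjusted p = 0.000187) and −0.55 ± 0.0647 at 16 weeks (adjusted p = 2.6e-06). Apoc1, which slows receptor uptake of remnants, read 39832, 40688 and 38108 in normal liver and 34240, 35041 and 38357 at 5 weeks. At 16 weeks it read 23691, 22708 and 22104. The 5-week arrays overlapped the normal ones, and that change of −0.14 ± 0.0622 did not pass (adjusted p = 0.0746). The change at 16 weeks was −0.79 ± 0.0622 (adjusted p = 3.36e-08), a 1.73-fold fall. Quantile normalization turned the Apoe change to values between 0.01 and 0.12 at the 5 times, and the Apoc1 change at 8 weeks from −0.53 to 0.02. The Apoe direction at every time and the Apoc1 direction at 8 weeks thus depended on the scaling.

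The 2 Apob probe sets did not tell the same story. Probe set 1388190_at read 39073, 39470 and 35867 in normal liver, 27548, 29791 and 31122 at 8 weeks and 24613, 25216 and 23690 at 16 weeks. Every treated array was below every normal one and the course was gradual. The change was −0.37 ± 0.057 at 8 weeks (adjusted p = 6.03e-05) and −0.64 ± 0.057 at 16 weeks (adjusted p = 1.45e-07), a 1.55-fold fall. Quantile normalization turned the 8-week change to 0.20 (adjusted p = 0.0015) and the 16-week change to 0.01, so the direction of this probe set depended on the scaling. Probe set 1371157_at, far dimmer, read 1086, 1093 and 916 in normal liver. It read 332, 348 and 380 at 5 weeks and 196, 153 and 174 at 8 weeks. It was back at 650, 563 and 633 at 12 weeks, then 400, 517 and 516 at 16 weeks and 483, 461 and 445 at 18 weeks. The 8-week arrays were the lowest of all. Its change was −1.50 ± 0.11 at 5 weeks (adjusted p = 5.32e-08), −2.47 ± 0.11 at 8 weeks (adjusted p = 1.46e-10), a 5.52-fold fall, and −0.73 ± 0.11 at 12 weeks (adjusted p = 4.04e-05). The step from 8 to 12 weeks was a rise of 1.74 ± 0.11 (adjusted p = 8.17e-09). At 16 weeks the change of −1.09 ± 0.11 (adjusted p = 5.15e-07) was −0.97 without 16-week array 1, the lowest of its group, and then no longer reached 2-fold.

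The signal of 1371157_at as a share of that of 1388190_at was 2.7% ± 0.127 (SD, n = 3) in normal liver. It fell to 1.09% ± 0.09 at 5 weeks and 0.593% ± 0.103 at 8 weeks, and was 2.25% ± 0.108 at 12 weeks. At 16 and 18 weeks it was 1.95% ± 0.289 and 1.79% ± 0.0935. The share cannot be read as an amount, since probe sets differ in brightness and 1388190_at lies above the 99th percentile of signal, where saturation was not tested. Control probe sets for RNA integrity also moved at 5 and 8 weeks. The ratio of 3′ to 5′ signal for Gapdh was 1.12 ± 0.0599 in normal liver, against 1.47 ± 0.0293 at 5 weeks and 2.12 ± 0.0521 at 8 weeks, and at 12 weeks it was 1.23 ± 0.0185 (SD, n = 3). For beta-actin it was 2.36 ± 0.305, 3.52 ± 0.26, 4.48 ± 0.203 and 2.69 ± 0.11 in the same groups. At 16 and 18 weeks the Gapdh ratio was 1.26 ± 0.0219 and 1.32 ± 0.0134. The beta-actin ratio was then 2.32 ± 0.0256 and 2.29 ± 0.0951. The part of RNA integrity in the Apob result, and in those of A1cf, Hnf4a and Nr5a2 below, which were also lowest at 8 weeks, was not tested. The position of the 2 Apob probe sets along the transcript is not known here. The other members were not lowest at 8 weeks.

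**Figure D3:**
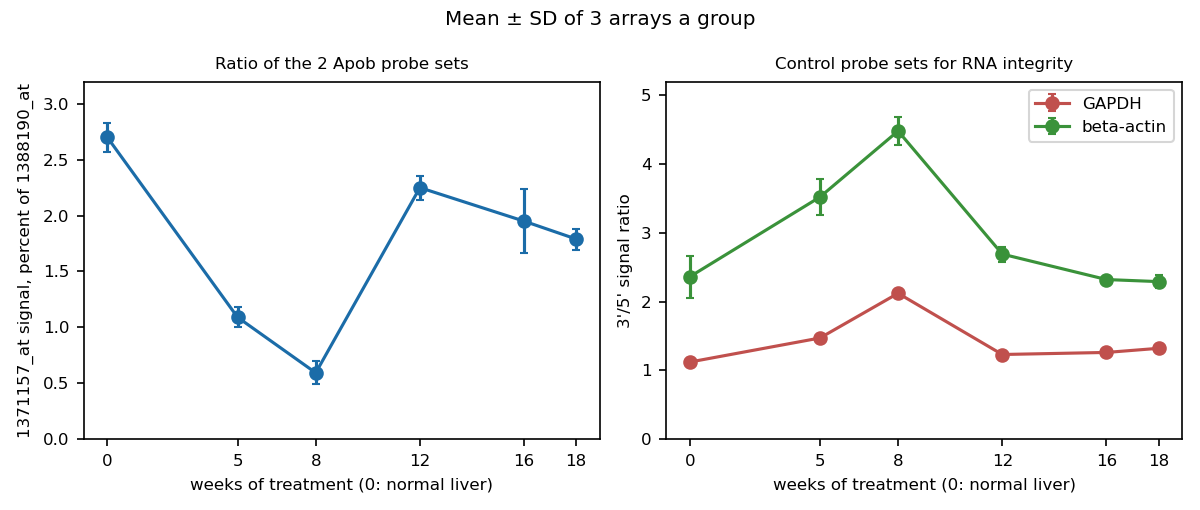
Left, signal of Apob probe set 1371157_at as a percentage of 1388190_at (y axis) against weeks of treatment (x axis, 0 being normal liver). Right, the 3′/5′ signal ratio of the Gapdh and beta-actin control probe sets (y axis) on the same weeks, both as mean ± SD of 3 arrays. The Apob share is lowest, at 0.593%, at 8 weeks, where the Gapdh ratio is highest, at 2.12.

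With signals as deposited, Mttp fell slightly and returned. It read 7445, 6782 and 7339 in normal liver, 6503, 6572 and 6567 at 5 weeks and 5975, 6146 and 6023 at 8 weeks. It read 5541, 5442 and 5589 at 12 weeks, 5868, 5737 and 5408 at 16 weeks and 7019, 6867 and 7121 at 18 weeks. The arrays from 5 to 16 weeks lay below all normal arrays and those of 18 weeks overlapped them. The change was −0.38 ± 0.0488 at 12 weeks (adjusted p = 8.93e-06) and −0.04 ± 0.0488 at 18 weeks (adjusted p = 0.542). The step from 16 to 18 weeks was a rise of 0.30 ± 0.0488 (adjusted p = 0.000272). In the authors' deposited table of log2 ratios the Mttp value at 18 weeks was −0.30, and quantile normalization gave 0.18. That normalization gave −0.03, −0.05, −0.06 and 0.06 at 5, 8, 12 and 16 weeks, so the fall depended on the scaling.

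Between neighbouring times, with signals as deposited, the largest number of members moved down from 5 to 8 weeks. In that step all 11 member probe sets were lower on every array, 8 of them with an adjusted p under 0.05, as 15.3% of all probe sets were. After quantile normalization 3 were lower and 1 higher by adjusted p, beside 14.6% of all probe sets lower, and Apoa1, Apoc3 and Apob 1388190_at stood at 0.11, 0.0187 and 0.14. At an unadjusted p under 0.05 without that normalization it was 10, though limma called 0 of the 11 at 2-fold (3.07% of all probe sets were called). From 8 to 12 weeks 2 were called, Apom lower and Apob 1371157_at higher, where 9.17% of all were called. At an adjusted p under 0.05 alone 5 were lower (21.1% of all) and 2 were higher (28.8%). By that rule 7 were lower after quantile normalization (26.3% of all) and 8 after median centring (39.0%). Both counts exceed those from 5 to 8 weeks under the same scalings, where median centring gave 6 lower (13.4% of all). From 12 to 16 weeks 0 were called (1.35% of all). At an adjusted p under 0.05 alone 5 were lower (10.3% of all) and 1 was higher (13.4%), and at an unadjusted p under 0.05 limma had 7 lower and 1 higher. From 16 to 18 weeks limma called 0 (2.96% of all). At an adjusted p under 0.05 alone 1 was lower (21.6% of all) and 5 were higher (14.2%), as at an unadjusted p under 0.05. These 5 were Apoa2, Apoa4, Apoa5, Apoe and Mttp, and their changes ran from 0.16 for Apoa4 to 0.47 for Apoa2. After quantile normalization the values for Apoa5, Apoa4 and Apoe in this step were 0.05, 0.04 and 0.01. For no step was the share of all probe sets at an unadjusted p computed.

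Several members lie near the top of the signal range, where array signals can saturate. In normal liver 7 of the 11 probe sets were above the 99th percentile of probe sets, all but Apoa4, Apom, Mttp and Apob 1371157_at. The highest signal of any probe set on an array was 49464 to 57704 in normal liver and 34299 to 35890 at 16 weeks, so the top of the range itself fell with treatment. Whether the brightest spots were saturated was not tested, as the files hold no saturation flag. The 311 probe sets with the highest mean over all arrays had a median change of −0.20, −0.39, −0.35, −0.53 and −0.32 at the 5 times, and 6 of them are members. Of these 6, Apoa2 lay below the lower quartile of the 311 from 8 weeks on and Apoa1 above the upper quartile at all 5 times. Among the 311 brightest in normal liver instead, Apoa2 lay below the lower quartile at 12 and 16 weeks alone, Apoa5, which enters that class, lay below it at all 5 times, and Apoa1 was again above the upper quartile at each. Apob 1388190_at, Apoc1, Apoc3 and Apoe stayed between the quartiles throughout. Their falls are thus of the size seen across bright probe sets in general.

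**Figure D4:**
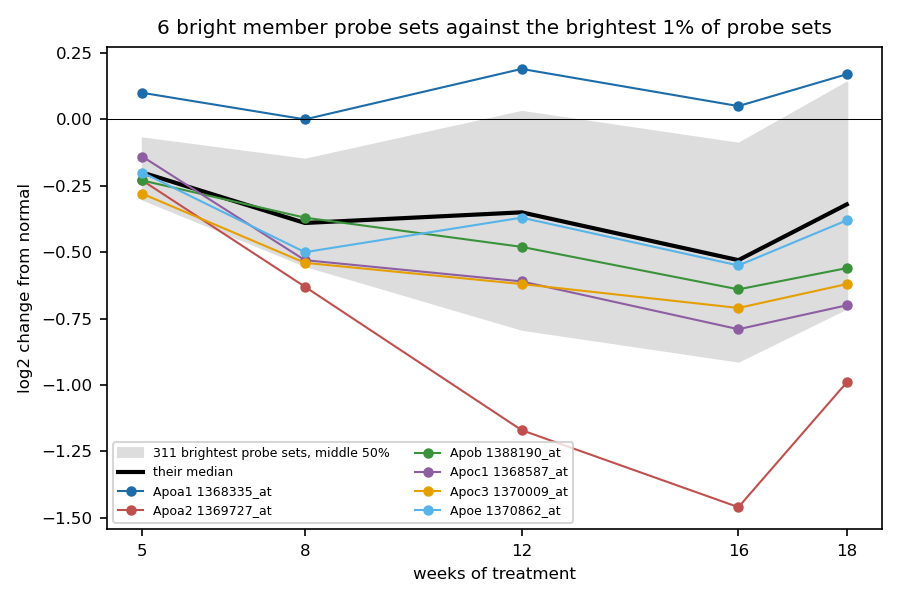
Change from normal liver in log2 units (y axis) against weeks of treatment (x axis) for the 6 members among the 311 brightest probe sets (points), with the median of the 311 (black line) and their middle 50% (grey band). Apoa2 leaves the band downward, to −1.46 at 16 weeks, and Apoa1 stays above it.

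The scaling of the arrays sets how the smaller changes are read. The authors' scaling left array medians rising from a mean of 125 in normal liver to 180 at 16 weeks, while bright probe sets fell. Quantile normalization forces 1 distribution on all arrays, and median centring lowers the median of all probe sets to −0.20 at 12 weeks and −0.26 at 16 weeks. Of the 11 members 9, 10, 10, 10 and 10 were below normal at the 5 times as deposited, 5, 6, 9, 7 and 8 after quantile normalization, and 9, 11, 11, 11 and 11 after median centring. Apoa5 and Apom were lower under all 3 scalings at each of the 5 times, as was Apob 1371157_at. Apoa4 and Apoa2 were so from 8 weeks, and Apoc1 and Apoc3 from 12 weeks. At 16 weeks Apoa5, Apom, Apob 1371157_at, Apoa4 and Apoa2 were at −1.56, −1.05, −1.29, −1.23 and −0.87 after quantile normalization. Apoc1 and Apoc3 were then at −0.16 and −0.13. The authors' deposited table of log2 ratios, averaged over the 9 pairs of arrays at each time, had the same sign as the fitted change in 54 of 55 member values, with a median difference of 0.07.

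**Figure D5:**
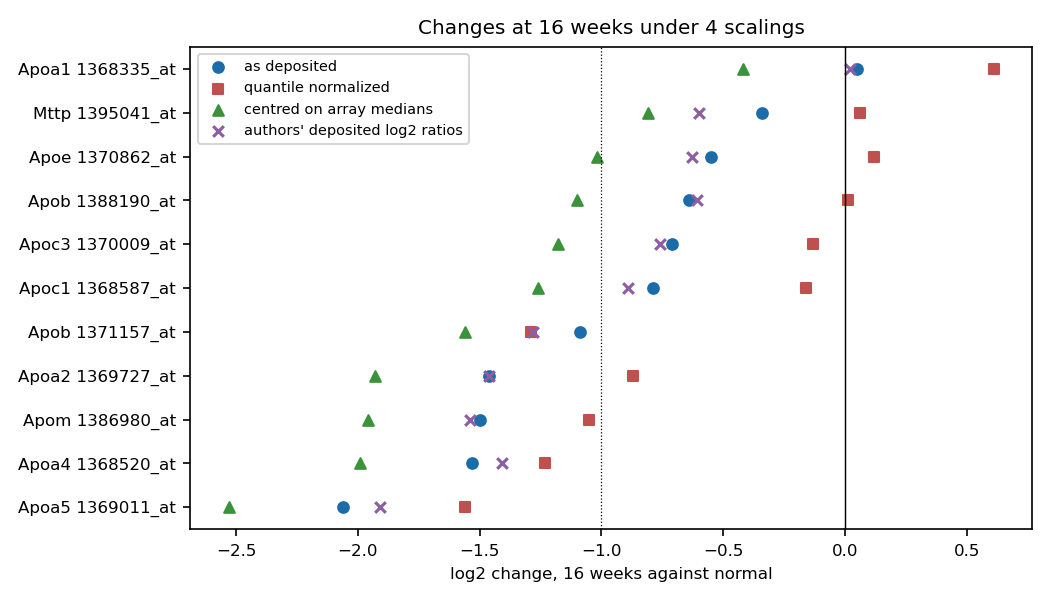
Log2 change at 16 weeks against normal liver (x axis) of each member probe set (y axis) with signals as deposited, quantile normalized or centred on array medians, and as the authors' deposited log2 ratios. The dotted line marks a 2-fold fall. Apoa5, Apoa4, Apom and Apob 1371157_at stay at or beyond −1.05 in all 4, whereas Apoe, Mttp, Apob 1388190_at and Apoa1 have values on both sides of 0.

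Markers of the cells in the tissue also changed over the course, not all in the same direction. Albumin, transthyretin, transferrin, Serpina1, Fgb, Ahsg and Cps1, 7 of 7 hepatocyte markers, were all measured and had median changes of −0.26, −0.53, −0.43, −0.57 and −0.45 at the 5 times. Their summed signal was 261834 to 305778 in normal liver and 177497 to 190534 at 16 weeks. Bile duct markers (5 of 6 tested, among them Krt19, Krt7 and Epcam) summed to 1378 to 1462 in normal liver and 10980 to 12135 at 16 weeks, with all 5 called higher from 12 weeks on. The 7 stellate cell and myofibroblast markers, such as Col1a1 and Acta2, summed to 1693 to 1871 and 9893 to 10068, with 6 called higher at 16 weeks. Macrophage markers (8 of 10 tested), a cell type that also makes ApoE, summed to 33947 to 34709 in normal liver and 22590 to 23119 at 16 weeks. Most of that difference lay in Clec4f, from 7187 to 1622, and Cd5l, from 10152 to 5064, both called lower. Cd163, C1qb and C1qa stood at −0.92, −0.21 and −0.14, under 2-fold. Cd68, Csf1r and Adgre1 stood at 0.20, 0.33 and 0.18, and the median of the 8 was −0.18. Markers of exocrine pancreas (4 of 8 tested) summed to 22622 to 24009 in normal liver, 17258 to 17694 at 5 weeks and 5634 to 6058 at 16 weeks. Amy2a3 made up most of these sums. Cpa1, a pancreatic carboxypeptidase, had a mean of 6264 in normal liver and 24.6 at 5 weeks, and Cela1 1023 in normal liver and 44 at 8 weeks. Cpa1 and Cela1 were called lower at all 5 times. Amy2a3 read 15969 in normal liver, 17165 at 5 weeks and 14720 at 8 weeks, was not called at either, and fell to 5387 at 16 weeks. Cpb1 read 210 in normal liver, 56.2 at 5 weeks and 256 at 18 weeks, and was not called at 12 or 18 weeks. The adipocyte marker Fabp4 rose by 3.80 to 4.35 over the 5 times, while Cidec, the other of 2 tested, was called lower at 12 and 16 weeks. Of 2 enterocyte markers tested Fabp2 was called higher from 12 weeks, by 1.73 at 16 weeks, and Cdx2 was not called. The part of these other tissues in the members' differences from normal liver was not tested. No marker list had a tested member at a mean signal of 0 in normal liver, and the bile duct markers Krt7 and Cldn7 were the dimmest there at 6.44 and 6.81. In such bulk tissue fewer hepatocytes and less RNA per hepatocyte cannot be told apart, and the part of cell composition in the members' changes was not tested. At 16 weeks the changes of Apoa5, Apom, Apoa4 and Apoa2 were −2.06, −1.50, −1.53 and −1.46, beside −0.48 for Alb to −0.92 for Fgb among the 7 hepatocyte markers. Apoc1, Apoc3, Apob 1388190_at and Apoe lay within that range, at −0.79, −0.71, −0.64 and −0.55. Apob 1371157_at was at −1.09, Mttp at −0.34 and Apoa1 at 0.05. The 7 markers had means of 26563 to 47220 in normal liver, above the 99th percentile of 14003, where saturation was not tested.

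Around the members, 86 of 103 genes chosen for lipoprotein metabolism could be tested in 5 lists. At the 5 times 2, 4, 5, 6 and 3 of the 86 were called higher and 8, 8, 14, 23 and 12 lower. The median change was −0.02, −0.15, −0.21, −0.40 and −0.26, beside 0.04, 0.12, 0.15, 0.16 and 0.12 over all tested genes. Across all tested probe sets 7.73%, 13.0%, 16.5%, 20.8% and 14.4% were called in either direction at these times. At 12 weeks the split was 3 higher and 29 lower with median centring and 5 higher and 9 lower with quantile normalization.

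Of the 9 further genes listed as apolipoproteins that were tested, which include Apoo and Apool, proteins of the mitochondrial inner membrane, 2 were called lower at 12 weeks and 1 at 16 weeks. Apoc2, the activator of lipoprotein lipase, changed by −1.17 ± 0.0522 at 12 weeks (adjusted p = 6.83e-11), from a signal of 19479 ± 1184 to 8630 ± 101 (SD, n = 3). Saa4, a constitutive serum amyloid A of HDL, changed by −1.08 ± 0.0537 at 12 weeks. Apon changed by −1.58 ± 0.0682 at 16 weeks. The Apoc2 and Saa4 falls at 12 weeks were −0.72 and −0.61 after quantile normalization, under 2-fold.

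For Apob mRNA editing and the loading and secretion of lipoproteins, 21 of 24 genes were tested and at most 5 were called lower, at 16 weeks, with 1 called higher at each time. A1cf, the cofactor that guides Apob mRNA editing, was also lowest at 8 weeks, like Apob 1371157_at, at −1.72 ± 0.103 at 5 weeks, −3.44 ± 0.103 at 8 weeks (adjusted p = 2.06e-12) and −1.48 ± 0.103 at 16 weeks. Fabp1, the liver fatty acid binding protein, changed by −1.60 ± 0.0685 at 16 weeks (−0.98 and no longer 2-fold after quantile normalization), and Dgat2, an enzyme of triglyceride synthesis, by −1.36 ± 0.0512 at 12 weeks. A second Dgat2 probe set stood at −0.81 at 12 weeks, was lowest at 8 weeks (−0.98) and did not reach 2-fold at any time. Cideb, a lipid droplet protein needed for lipid loading in the mouse, rose by 1.47 ± 0.0598 at 5 weeks (adjusted p = 1.16e-10). Sort1, the sorting receptor sortilin, rose by 1.56 ± 0.142 at 18 weeks (adjusted p = 2.26e-07).

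In the HDL list, 12 of 14 genes were tested, with 0, 1, 2, 3 and 3 lower and 1 higher, at 8 weeks. Lipc, the hepatic lipase, changed by −1.99 ± 0.0524 at 16 weeks (adjusted p = 1.99e-13), from 12629 ± 241 to 3173 ± 98.7. Pdzk1, a scaffold that stabilises the HDL receptor, changed by −1.51 ± 0.0884 at 12 weeks, and Pon1, the HDL paraoxonase, by −1.55 ± 0.0509 at 16 weeks. The Pon1 value was −0.95, under 2-fold, after quantile normalization, and −0.53 in a second Pon1 probe set. Bmp1, a protease that cleaves the ApoA-I propeptide, was the 1 gene called higher, at 1.03 ± 0.0645 at 8 weeks. That call was lost at 0.90 after quantile normalization and 0.92 after median centring, and a second Bmp1 probe set stood at −0.08 (adjusted p = 0.712).

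For clearance and lipolysis, 21 of 26 genes were tested, with 4, 4, 3, 7 and 5 lower and 0, 0, 2, 3 and 2 higher. Angptl4, a lipase inhibitor, changed by −2.65 ± 0.0674 at 12 weeks. Lpl, lipoprotein lipase itself, rose from 378 ± 35 to 3681 ± 247 at 16 weeks, by 3.23 ± 0.0788 (adjusted p = 8.9e-14). Vldlr, a receptor for triglyceride-rich particles, rose by 2.81 ± 0.132 at 16 weeks from a normal signal of 50.3 ± 8.39, where the pseudocount of 16 limits the size of the change. Mylip, a ubiquitin ligase, rose by 1.35 ± 0.0893 at 16 weeks, or 0.88 and under 2-fold after median centring.

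Among transcription factors known to bind apolipoprotein genes, 23 of 26 were tested, with 3, 2, 3, 7 and 2 lower and 1, 2, 2, 2 and 0 higher. Hnf4a, a main driver of apolipoprotein genes in hepatocytes, changed by −1.98 ± 0.0698 at 5 weeks, −2.91 ± 0.0698 at 8 weeks (adjusted p = 2.08e-13) and −1.26 ± 0.0698 at 16 weeks, and it too was lowest at 8 weeks. A second, dimmer Hnf4a probe set changed by less, at −1.09, −1.78 and −0.78 at the same times, and was also lowest at 8 weeks. Nr5a2, a nuclear receptor, was called lower at all 5 times and was also lowest at 8 weeks, at −2.28 ± 0.0907. Creb3l3, a factor that drives Apoa4 and Apoa5 in the mouse, changed by −1.62 ± 0.0766 at 12 weeks (adjusted p = 1.35e-10), and Nr1h4, the bile acid receptor FXR, by −1.52 ± 0.124 at 16 weeks. Higher calls were Mlxipl at 5 weeks (1.26 ± 0.062), Nr2f2 at 8 weeks (1.77 ± 0.194), Egr1 at 12 weeks (1.20 ± 0.0605) and Esrra at 16 weeks (1.11 ± 0.2). Nr1d1, a clock repressor, was lower at 5 and 18 weeks (−2.74 ± 0.123 and −1.91 ± 0.123) and higher at 8 and 12 weeks (1.45 ± 0.123 and 1.27 ± 0.123). Median centring took Egr1 at 12 weeks to 0.82, Esrra at 16 weeks to 0.64 and Nr1d1 at 12 weeks to 0.88, quantile normalization took Esrra to 0.77, and none of these then reached 2-fold. A second Nr2f2 probe set stood at 0.04 at 8 weeks (adjusted p = 0.827).

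The genes most like each member were found by Pearson's r of the 6 group means among 2630 genes called at 1 time or more, a description over 6 points that come from the same arrays, with no test. Apoa5 was closest to Idi1, an enzyme of isoprenoid synthesis (r = 0.998), and then to Edem1 and Dpyd (0.994 each). Idi1 changed by −1.39 at 5 weeks and −2.33 at 16 weeks. Apom was closest to Ammecr1l (0.997), G0s2, an inhibitor of adipose triglyceride lipase (0.993), and Fabp7 (0.989). G0s2 changed by −2.79 at 12 weeks and −2.23 at 16 weeks, with the partial return that Apom had. Apoa4 was closest to Cth, P2ry2 and Mro (0.996, 0.995 and 0.995), and Apoa2 to Mcee, Sdc2 and Cd302 (0.997, 0.997 and 0.994). For Apoc3 they were Ttpa, Cyp2a1 and Nat8b (0.998, 0.997 and 0.997), for Apoc1 Pmvk, Mbl2 and Mug1 (0.997, 0.990 and 0.987) and for Apoe Hoga1, Csgalnact1 and Rdh11 (0.988, 0.986 and 0.983). Apob 1388190_at was nearest to Car5a, Slc38a4 and Ghr (0.998, 0.996 and 0.996). The nearest genes of Apoa1, which were Oasl, Clic2 and Ctf1, and of Mttp, which were Shf, Mgarp and Pdia4, reached only 0.930, 0.910 and 0.907, and 0.925, 0.925 and 0.921.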

How the data were processed

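RNA of 18 liver samples was measured on Affymetrix rat arrays from 5 ug of RNA each. Per the submitters' processing notes the authors used GCOS 2.0, while no source used here names the scaling target. Intensity values on a linear scale make up the deposited value table. A deposited workbook holds gene symbols, the authors' log2 ratios of treated to normal arrays (9 pairs per time) and the same signals rounded, which equalled the value table within 0.11 for the 15 treated arrays. Its 3 normal columns held those values in another row order (correlation by probe set 0.0594 to 0.064) and were not used. No detection calls or saturation flags were used.

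Members were matched by deposited symbol without the suffix for predicted genes. The members, the related lists and the motifs were chosen with earlier results of these data known. Signals were transformed to log2(signal + 16) without further scaling. Probe sets that are no control (57 are) with a mean above the 40th percentile, a signal of 94.4, were kept, which left 18625, all 11 members among them. For lists, each gene's probe set with the highest mean was read (10465 genes). A single limma 3.58.1 fit (R 4.3.3, lmFit and eBayes) covered all 6 groups, with two-sided tests of each time against normal liver and against the time before and adjustment over all probe sets kept. Plots were drawn with matplotlib 3.10.9, and tables with pandas 2.3.3 and numpy 2.4.6 under Python 3.11.15. The pipeline was tested on simulated data. Named genes were all member probe sets, up to 4 called genes with the largest mean change in each list, those called against the direction of most of the list, and the 3 genes most like each member, without provisional symbols; 1 gene that this rule named is not reported here. The array numbers are those of the titles. The number of arrays limits the precision, the sum of signals per array being 2.23e+07 to 2.64e+07. Alternatives were other scalings, pseudocounts, filters, thresholds and variance models, 1 probe set a gene, fits of 2 groups, a replicate block, each array left out and the authors' log2 ratios. The fit without the 8-week arrays was chosen after seeing the data.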

Additional observations from a re-analysis of the deposited data

Results flagged for a closer look

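For 2 member probe sets the step between 8 and 12 weeks passed the adjusted p with a change of at least 2-fold. By adjusted p alone 5 members were lower in this step and 2 were higher, beside 21.1% and 28.8% of all probe sets. Apob 1371157_at changed by 1.74 on the log2 scale between 8 and 12 weeks (limma, adjusted p = 8.17e-09), with 3 of 3 arrays higher. The 3′/5′ ratio of Gapdh was 2.12 at 8 weeks and 1.23 at 12 weeks, and its part in this value was not tested. Apom 1386980_at changed by −1.44 in the same step (adjusted p = 3.34e-10), with 3 of 3 arrays lower.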

How the results depend on the processing

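Apoa5, Apom and Apoa4 kept their called falls from 12 weeks on under every alternative tried. The limits lie with the bright probe sets, with the number of arrays and with their being technical replicates per the labels. Over 3082 member values under alternatives, 2976 kept their side of the threshold, 2952 of them with the same direction and 24 with a change of sign where neither value passed the adjusted p. Of the others 85 passed the threshold newly, 3 no longer passed (Apoa2 at 12 and 16 weeks under quantile normalization, at −0.73 and −0.87, and Apob 1371157_at at 16 weeks without 16-week array 1, at −0.97) and 18 turned sign with at least 1 value past the adjusted p. The cause was not tested. All 11 members varied over the groups under every alternative of that test except no filter and 1 probe set a gene, with 10 each, the latter of 10 tested.

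Quantile normalization gave Apoe 0.058, 0.0056, 0.12, 0.12 and 0.12 at the 5 times, Apoa2 0.0224 at 5 weeks, Apoc1 0.0215 at 8 weeks, Apob 1388190_at 0.0565, 0.20 and 0.0135 at 5, 8 and 16 weeks, and Mttp 0.0625 and 0.18 at 16 and 18 weeks. From 5 to 8 weeks it gave Apoc3 0.0187 and Apob 1388190_at 0.14. Median centring gave Apoa1 −0.19, −0.42 and −0.0163 at 12, 16 and 18 weeks and −0.0825 from 8 to 12 weeks. It called 9 members at 16 weeks, and of the related genes 32 at 12 weeks, 27 at 18 weeks, 19 from 8 to 12 weeks and 1 from 16 to 18 weeks. With this centring 45.8% of all probe sets were lower at 16 weeks by adjusted p alone, and the share called at 2-fold was not computed. A pseudocount of 1 called 1 member from 5 to 8 weeks. With 1 probe set a gene, which leaves out Apob 1371157_at, 1 member each was called at 5 weeks, at 8 weeks and from 8 to 12 weeks.

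Without the fold threshold 8, 10, 11, 10 and 10 members were called at the 5 times and 8, 7, 6 and 6 in the 4 steps. The related genes numbered 56, 61, 72, 71 and 68, and 56, 70, 41 and 53. Of all probe sets 20.8%, 22.9%, 21.7%, 22.4% and 23.4% were lower by this rule at the 5 times. Another 27.8%, 34.6%, 40.7%, 43.4% and 34.8% were higher. In the 4 steps 15.3%, 21.1%, 10.3% and 21.6% were lower and 17.3%, 28.8%, 13.4% and 14.2% higher. At a fold of at least 1.5, 5, 7, 8 and 7 members were called from 8 weeks on, 2 from 5 to 8 weeks and 4 from 8 to 12 weeks. The related genes then numbered 23, 28, 40, 50 and 43, and 13, 35, 14 and 11 in the steps. Shares of all probe sets at a fold of at least 1.5 were not computed. Of 85 related calls 18 were lost under quantile normalization, 8 under median centring, and 0 changed sign. Leaving out 1 array gave 2 to 2, 2 to 2, 4 to 4, 4 to 5 and 4 to 5 called members at the 5 times, and 0 to 1, 2 to 2, 0 to 0 and 0 to 0 in the steps. The 1 came without 5-week array 1 or 8-week array 1. The related genes then ranged over 10 to 11, 11 to 13, 19 to 21, 28 to 29 and 15 to 17, and 5 to 7, 11 to 13, 4 to 5 and 2 to 3.

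Arrays of the same number in different groups correlated by −0.067 to 0.164 in their deviations from the group means (7 of 45 pairs above 0.1), and 10 of 18 arrays correlated best with their own number, so the numbers were not taken to pair samples. With the replicate number as a block the members called were 2, 2, 4, 5 and 4, and 0, 2, 0 and 0 in the steps, the same counts as without it.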
